A study of Mus musculus with 9 samples.

Results

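The 7 genes examined here encode the ligands, receptors and first substrates of insulin and IGF signaling. They were Igf1 and Igf2, the IGF ligands, Igf1r, Igf2r and Insr, the receptors, and Irs1 and Irs2, the insulin receptor substrates. They were chosen by name, and all 7 were found among the 50686 genes counted by RNA-Seq and among the 15531 genes that had enough counts to be tested.

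RNA-Seq was performed on 3 groups with 3 libraries each. Control osteoblasts were untreated cells of MC3T3, a mouse osteoblast line, so that both osteoblast groups descend from 1 line. SB216763-treated osteoblasts were MC3T3 cells given 10 μM SB216763, a small molecule that inhibits the GSK3 kinases, for 14 days. The third group was untreated mouse pulmonary ECs, isolated by FACS. The time in culture of the untreated cells is not named, and nothing says that replicates came from separate cultures or animals, so the p-values measure only the spread between these libraries, which may be technical.

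Insulin and IGF1 bind 2 related receptor tyrosine kinases, encoded by Insr and Igf1r, and the active receptors phosphorylate IRS1 and IRS2, which recruit PI3K and lead on to AKT, mTOR and the FoxO factors. IGF2 binds the same kinases, and it is taken up and degraded through IGF2R, a receptor without a kinase that also carries lysosomal enzymes. AKT phosphorylates and inhibits GSK3, so the target of SB216763 is itself an element of this pathway. In bone, IGF1 is made by osteoblasts and supports their growth and matrix production.

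The libraries held between 30990107 and 68946333 counts, so that 3 counts, the smallest level read here, were worth 0.0472 to 0.104 CPM (counts scaled to the size of the library, with TMM normalization). That level covers counting error only. All 7 osteoblast markers reached 1 CPM in the control osteoblasts, with summed levels of 43899.9 to 59319.8 CPM. In the SB216763-treated osteoblasts 6 of them did, with sums of 8064 to 8335 CPM, and in the ECs 4 did, with sums of 45.1 to 64.5 CPM. All 7 endothelial markers reached 1 CPM in the ECs, with sums of 6316 to 6503 CPM. In each osteoblast group 1 of 7 did, with sums of 3.23 to 4.03 CPM in control and 4.46 to 5.04 CPM in treated osteoblasts. That marker was Vwf, at 1.16 CPM in control and 2.42 CPM in treated osteoblasts. In control osteoblasts the 5 macrophage markers summed to 26.8 to 28.2 CPM and 1 reached 1 CPM. In treated osteoblasts the sums were 8.54 to 10.0 CPM and 2 did, and in ECs 57.2 to 59.5 CPM and 3 did. Cd68 had a mean of 46.6 CPM in ECs, 0.532 CPM in control and 1.62 CPM in treated osteoblasts. Lyz2 was at 25.1 to 27.3 CPM in control, with means of 7.04 CPM in treated osteoblasts and 10.4 CPM in ECs. Csf1r had a mean of 1.41 CPM in ECs and was under 1 CPM in both osteoblast groups. Ptprc, the pan-leukocyte member, had 1 to 11 counts in every library, and Adgre1 had 0 to 4. Of the 4 smooth muscle and pericyte markers, 1 reached 1 CPM in each group, and they summed to 23.4 to 41.4 CPM in control, 2.89 to 3.84 CPM in treated osteoblasts and 1.40 to 2.20 CPM in ECs. Markers of adipocytes and lung epithelium summed to at most 0.116 CPM. The part of these marker levels in the results was not tested, and in bulk samples fewer cells of a type and less RNA per cell cannot be told apart. Control replicate 2 stood apart: across 9278 genes, its deviation from the mean of its group had a Spearman correlation of -0.586 with exon length, against 0.421 and 0.393 in the other control libraries. Treated replicates 2 and 3 also deviated with exon length, at -0.468 and 0.411, against -0.0162 in replicate 1, and the EC libraries lay between -0.112 and 0.177. The exons of the 7 genes span 5723 to 16791 bp, and results that rest on 1 of these libraries are also given without it. Leaving out treated replicate 2 or 3 changed no call of the 7 genes between treated and control osteoblasts.

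SB216763-treated osteoblasts had less RNA of both IGF ligands and both substrates than the controls, more Igf2r and slightly more Insr, and an Igf1r level that did not pass the test. Igf2 fell 37.1-fold and Irs1 4.49-fold, while Igf2r rose 2.19-fold. Thus 2 genes were higher and 4 lower at an adjusted p under 0.01 in edgeR's quasi-likelihood test. Over all genes tested, 32.9% were higher and 32.0% lower at the same level, so a call by itself was common in this comparison. At the cutoff that also asks for a 4-fold change, 0 of the 7 were higher and 2, Igf2 and Irs1, were lower, against 3.81% and 5.84% of all genes. The median log2 fold change of the 7 was -0.98, and that of all genes 0.01.

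ECs had lower levels than control osteoblasts of 5 of the 7 genes, Igf1, Igf2, Igf2r, Irs1 and Irs2, and no member was higher. In this comparison 39.0% of all genes were higher and 37.9% lower. The 4-fold cutoff was passed by 4 of the 7, all lower, against 13.5% of all genes higher and 9.87% lower. The SB216763-treated osteoblasts, set against ECs, had 5 genes higher and 1, Igf2, lower, with 38.3% and 40.3% of all genes called in these directions. At 4-fold, 3 were higher and 1 lower, beside 10.3% and 15.0% of all genes. The median log2 fold changes of the 7 were -2.68 and 1.70, and those of all genes 0.01 and -0.02. The 3 comparisons share their groups and are not independent of each other.

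**Figure D1:**
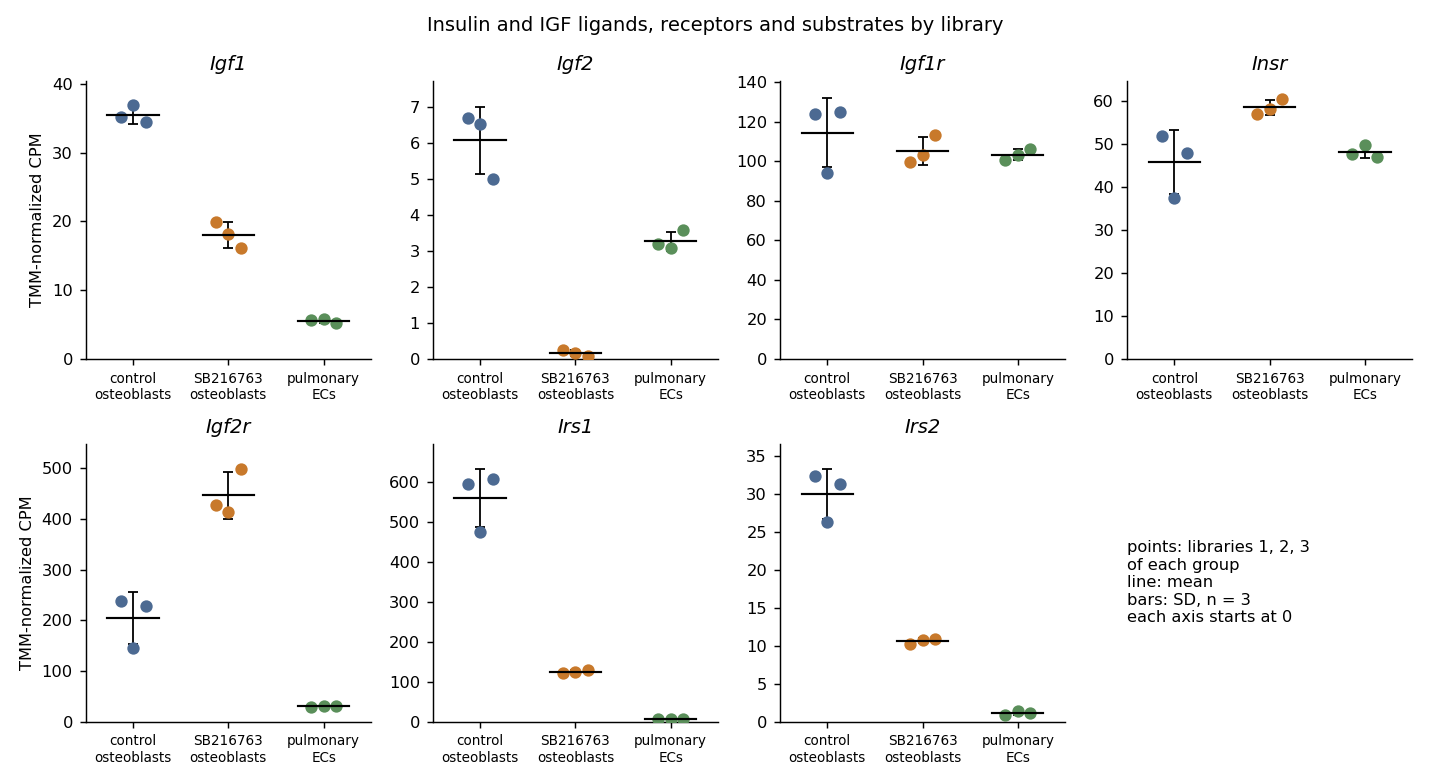
Level of each of the 7 genes in every library, in TMM-scaled CPM on a linear axis from 0, with points for libraries and bars for the mean and SD of 3 libraries. Igf2 lay between 0.0817 and 0.258 CPM in the SB216763-treated osteoblasts, below both other groups, while Igf1r overlapped between all groups.

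**Figure D2:**
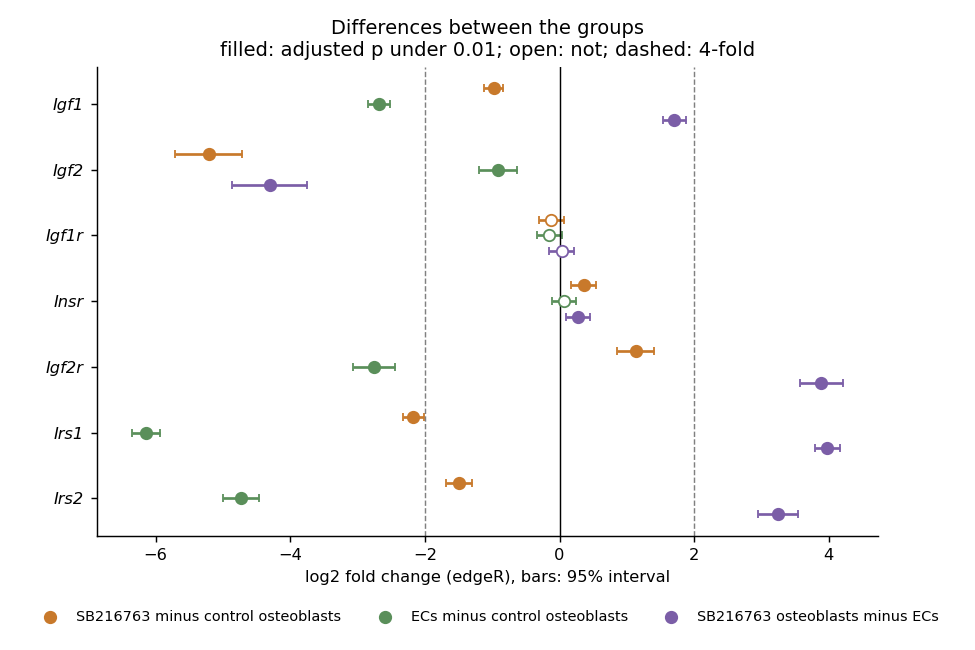
Log2 fold change of each gene in the 3 comparisons, with dashed lines at a 4-fold change. Bars are approximate 95% confidence intervals derived from the F statistic of edgeR's quasi-likelihood test. Irs1 had the lowest value, -6.15 in ECs against control osteoblasts, and the 3 values of Igf1r lay between -0.15 and 0.03.

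Igf1 (chromosome 10, 87858265 to 87937042, plus strand, GRCm38), the ligand of the IGF1 receptor, was at 35.2, 36.9 and 34.4 CPM in the control osteoblasts and at 19.9, 18.1 and 16.1 CPM in the SB216763-treated osteoblasts. The EC libraries had 5.61, 5.75 and 5.28 CPM. The groups did not overlap, with control highest and ECs lowest. The log2 fold change of Igf1 with SB216763 was -0.98 ± 0.07 (SE, n = 3, adjusted p = 1.84e-09 in edgeR's quasi-likelihood test), and the treated osteoblasts remained 3.26-fold above the ECs (adjusted p = 9.11e-12, same test). ECs were 6.42-fold below the controls (adjusted p = 1.29e-14, same test).

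Igf2 (chromosome 7, 142650766 to 142666816, minus strand), an imprinted gene for the fetal growth factor, was at 6.68, 6.53 and 5.0 CPM in control osteoblasts, from 424, 359 and 144 counts. In SB216763-treated osteoblasts it had 9, 6 and 3 counts, or 0.258, 0.156 and 0.0817 CPM. Replicate 3 of this group therefore stood at the smallest level read here. The EC libraries had 3.18, 3.07 and 3.57 CPM, between the osteoblast groups and without overlap with either. The fall with SB216763 had a log2 fold change of -5.21 ± 0.23 (SE, n = 3, 95% confidence interval -5.71 to -4.72, adjusted p = 8.12e-12 in edgeR's quasi-likelihood test). With 9, 6 and 3 counts in the treated libraries, this SE and interval are approximate and understate the counting error. Against ECs the treated osteoblasts were 19.7-fold lower (adjusted p = 2.17e-10, same test), and ECs were 1.88-fold below control (adjusted p = 8.08e-06, same test).

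H19, the imprinted noncoding RNA gene that neighbors Igf2, was too low to be tested. It had 17, 16 and 7 counts in control osteoblasts, 0 in each treated library and 4, 3 and 4 in ECs. Read against a level of 3 counts per library, H19 was at least 3.26-fold lower in the treated osteoblasts than in control. Igf2os, which lies antisense to Igf2, had 0 to 2 counts in every library.

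Igf1r (chromosome 7, 67952827 to 68233668, plus strand), the receptor tyrosine kinase for IGF1, was at 124, 94.1 and 125 CPM in control osteoblasts, 99.4, 103 and 113 CPM in treated osteoblasts and 100.5, 103 and 106 CPM in ECs. All 3 groups overlapped, and the spread was widest in control, where replicate 2 was lowest. The log2 fold change was -0.12 with SB216763 (95% confidence interval -0.30 to 0.06, adjusted p = 0.213 in edgeR's quasi-likelihood test). It was -0.15 in ECs against control (-0.33 to 0.03, adjusted p = 0.121, same test), and 0.03 in treated osteoblasts against ECs (-0.16 to 0.21, adjusted p = 0.783, same test). Without control replicate 2, Igf1r passed the test in both comparisons with control, at -0.25 with SB216763 (adjusted p = 1.64e-04, same test) and -0.28 in ECs (adjusted p = 4.45e-05, same test).

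Insr (chromosome 8, 3122061 to 3279617, minus strand), the insulin receptor, was at 51.9, 37.5 and 48.0 CPM in control osteoblasts and at 57.0, 58.1 and 60.4 CPM in treated osteoblasts. ECs had 47.7, 49.7 and 47.0 CPM. The treated libraries were the highest of all 9, and the ECs fell within the range of control. The rise with SB216763 was 1.28-fold, a log2 fold change of 0.36 ± 0.08 (SE, n = 3, adjusted p = 0.00138 in edgeR's quasi-likelihood test). It was 0.22 without control replicate 2, and the call was lost when the 2 osteoblast groups were fitted alone (adjusted p = 0.0102, same test). Treated osteoblasts were 1.22-fold above ECs (adjusted p = 0.00595, same test), a call that was lost when treated replicate 2 or 3 or any 1 of the EC libraries was left out (adjusted p = 0.0111 to 0.0209, same test). ECs and control differed by 0.07 on the log2 scale (95% confidence interval -0.11 to 0.25, adjusted p = 0.44, same test), and by -0.07 without control replicate 2.

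Igf2r (chromosome 17, 12682406 to 12769664, minus strand), the receptor that clears IGF2 and sorts lysosomal enzymes, was at 239, 145 and 229 CPM in control osteoblasts and at 428, 413 and 499 CPM in treated osteoblasts. The ECs had 28.8, 30.5 and 31.2 CPM. The groups did not overlap, and the order was treated, control, ECs. The log2 fold change of Igf2r with SB216763 was 1.13 ± 0.13 (SE, n = 3, adjusted p = 1.22e-06 in edgeR's quasi-likelihood test), and 0.92 without control replicate 2. Treated osteoblasts were 14.8-fold above ECs (adjusted p = 6.14e-13, same test), and ECs 6.76-fold below control (adjusted p = 3.9e-11, same test).

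Airn, a noncoding RNA known for silencing Igf2r on 1 parental chromosome in the mouse, is transcribed from the opposite strand and overlaps Igf2r over 28354 bp. It was at 3.54, 3.26 and 4.03 CPM in control osteoblasts, 16.0, 14.9 and 17.5 CPM in treated osteoblasts, and 0.0229, 0.0913 and 0.162 CPM in ECs. The EC levels of Airn came from 1, 3 and 7 counts, at or near the smallest level read here. Airn and Igf2r thus had the same order of groups. Airn rose with SB216763 by a log2 fold change of 2.18 ± 0.11 (SE, n = 3, adjusted p = 2.65e-11 in edgeR's quasi-likelihood test). The strand setting of the counting is not given in the sources used here, so reads of Airn and Igf2r cannot be told apart where they overlap. Counts assigned to Airn were 1.75%, 3.61% and 0.305% of those of Igf2r in control, treated osteoblasts and ECs.

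Irs1 (chromosome 1, 82233101 to 82291416, minus strand), a docking protein through which the receptors engage PI3K, was at 595, 476 and 608 CPM in control osteoblasts. The treated osteoblasts had 121, 124 and 129 CPM, and the ECs 7.72, 7.91 and 8.06 CPM. No groups overlapped, with control highest and ECs lowest. Irs1 fell by 2.17 ± 0.08 on the log2 scale with SB216763 (SE, n = 3, adjusted p = 3.69e-13 in edgeR's quasi-likelihood test). ECs were 70.8-fold below control (adjusted p = 4.73e-18, same test), and the treated osteoblasts were 15.8-fold above ECs (adjusted p = 5.43e-16, same test).

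Irs2 (chromosome 8, 10984681 to 11008458, minus strand), the second widely expressed substrate, was at 32.4, 26.3 and 31.3 CPM in control osteoblasts, 10.3, 10.8 and 10.9 CPM in treated osteoblasts and 0.916, 1.43 and 1.09 CPM in ECs. The EC levels came from 40, 47 and 47 counts. Irs2 had the same order of groups as Irs1, without overlap. It fell by 1.49 ± 0.09 on the log2 scale with SB216763 (SE, n = 3, adjusted p = 2.51e-10 in edgeR's quasi-likelihood test). ECs were 26.6-fold below control (adjusted p = 3.27e-15, same test), and treated osteoblasts were 9.48-fold above ECs (adjusted p = 1.94e-12, same test). By real-time PCR, the study itself reported no change of Irs1 or Irs2 in osteoblasts given SB216763. The counts of both genes differ from that report, and the reason was not tested.

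The RefSeq windows that begin 250 bases before the start sites (GRCm38.p6) were found for 6 of the 7 genes, all except Insr, and were read for 3 motifs on both strands: CACGTG, the palindromic E-box, CTTTGAT, a TCF/LEF motif, and GTAAACA, a FoxO motif. The E-box was added after these sequences had been read. It was present in the windows of Irs1, Irs2 and Igf2r, and in 6.02% of all 32817 windows of the same length. The TCF/LEF motif was in 3.21% and the FoxO motif in 3.16% of all windows, and in none of the 6 genes. The stretches that hold the E-box are shown because they belong to both substrates, which fell with SB216763, and to Igf2r, which rose. They run 5′ to 3′ on the strand of the gene, with the E-box in capitals.
Irs1: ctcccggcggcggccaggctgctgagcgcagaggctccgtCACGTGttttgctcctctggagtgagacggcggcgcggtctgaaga
Irs2: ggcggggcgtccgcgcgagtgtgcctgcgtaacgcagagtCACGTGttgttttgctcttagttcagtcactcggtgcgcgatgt
Igf2r: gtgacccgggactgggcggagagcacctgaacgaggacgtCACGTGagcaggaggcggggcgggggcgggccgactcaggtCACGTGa
They lie at chr1:82291509-82291594 for Irs1, chr8:11008930-11009013 for Irs2 and chr17:12769707-12769794 for Igf2r, all on the minus strand. The E-box begins 115 bases before the RefSeq start site in Irs1 and 44 bases before it in Irs2, and Igf2r has 2, beginning 48 and 7 bases before its start site. In the GENCODE coordinates given above, Irs2 starts further downstream, at 11008458. No direction of change went with these letters, and no binding was measured here.

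Levels were compared between genes only after division by exon length, as CPM per kb. In control osteoblasts Irs1 was highest at 61.2 ± 7.96 CPM per kb (SD, n = 3), followed by Igf2r at 21.9, Igf1r at 6.81, Irs2 at 4.74, Igf1 at 3.59, Insr at 3.33 and Igf2 at 1.06 CPM per kb. Igf1 and Insr overlapped in this order, and no other neighbors did. Irs1 alone made up 59.7% of the summed level per kb of the 7 genes.

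In the SB216763-treated osteoblasts Igf2r led at 48.0 ± 4.94 CPM per kb (SD, n = 3), ahead of Irs1 at 13.6, Igf1r at 6.25, Insr at 4.26, Igf1 at 1.82, Irs2 at 1.68 and Igf2 at 0.0289 CPM per kb. Igf1 and Irs2 overlapped. Irs1 and Igf2r had exchanged places, with Igf2r now making up 63.3% of the sum and Irs1 18.0%.

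In ECs the kinase receptors led, with Igf1r at 6.14 ± 0.176 and Insr at 3.50 ± 0.101 CPM per kb (SD, n = 3), followed by Igf2r at 3.24, Irs1 at 0.864, Igf2 at 0.572, Igf1 at 0.560 and Irs2 at 0.181 CPM per kb. Igf2 and Igf1 overlapped. The 3 receptors took 40.8%, 23.3% and 21.5% of the sum, so that ECs held receptor RNA mostly, and little ligand or substrate RNA. Receptors also took most of the sum in treated osteoblasts, with Igf2r at 63.3%, Igf1r at 8.27% and Insr at 5.64%.

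**Figure D3:**
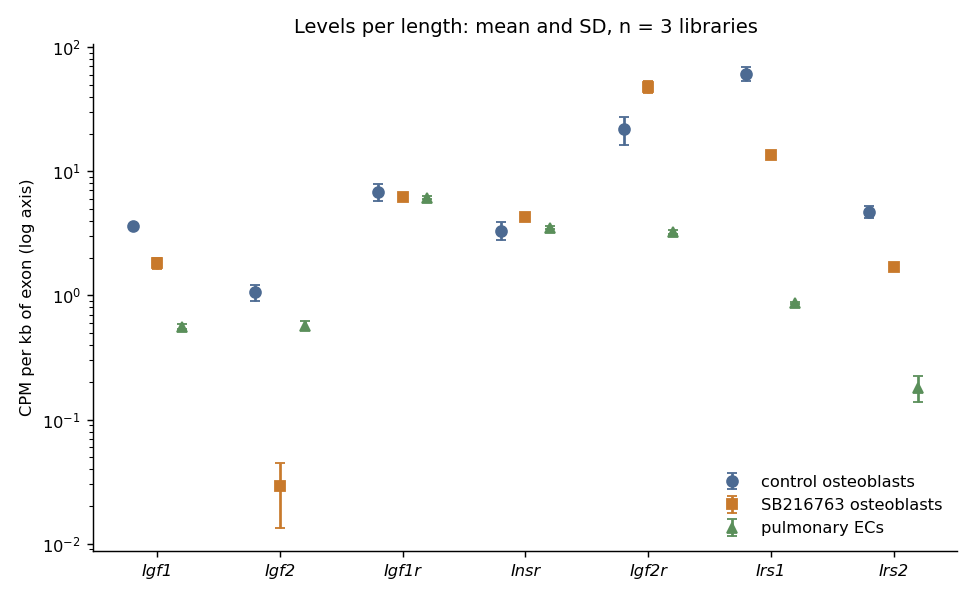
Level of the 7 genes per kb of exon in the 3 groups, in CPM per kb on a logarithmic axis, with symbols for the mean and bars for the SD of 3 libraries. Irs1 was first in control osteoblasts at 61.2 CPM per kb, Igf2r in the SB216763-treated osteoblasts at 48.0, and Igf1r in ECs at 6.14.

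Ratios within a library do not depend on the scaling between libraries. The count ratio of Igf1r to Insr was 2.39, 2.51 and 2.60 in control osteoblasts, 1.74, 1.77 and 1.86 in treated osteoblasts and 2.11, 2.07 and 2.26 in ECs. The 3 groups did not overlap, control replicate 2 lay within its group, and treated osteoblasts had the least Igf1r for each Insr count. The difference was -0.48 on the log2 scale between treated and control osteoblasts, -0.22 between ECs and control, and -0.26 between treated osteoblasts and ECs.

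The count ratio of Irs1 to Irs2 was 18.4, 18.1 and 19.4 in control osteoblasts, 11.8, 11.5 and 11.9 in treated osteoblasts, and 8.43, 5.53 and 7.40 in ECs. Per kb of exon, Irs1 was 3.79 to 13.4 times as high as Irs2 over all 9 libraries, with the control osteoblasts highest and the ECs lowest. The log2 differences were -0.67 with SB216763 and -1.42 in ECs, both against control, and 0.75 between treated osteoblasts and ECs.

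The count ratio of Igf1 to Igf2 was 5.28, 5.65 and 6.88 in control osteoblasts, 77.1, 116 and 198 in treated osteoblasts, and 1.76, 1.87 and 1.48 in ECs. The ratios of the treated libraries rest on the 3 to 9 counts of Igf2. Per kb of exon, the ligands were close to equal in ECs, with ratios of 0.855 to 1.08. The log2 differences were 4.22, -1.80 and 6.02 in the order of the comparisons above. Each of these 9 differences had an exact permutation p = 0.1 (2-sided, n = 3 against 3) and an adjusted p = 0.1, the smallest that 3 libraries against 3 allow, so none could pass the test.

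**Figure D4:**
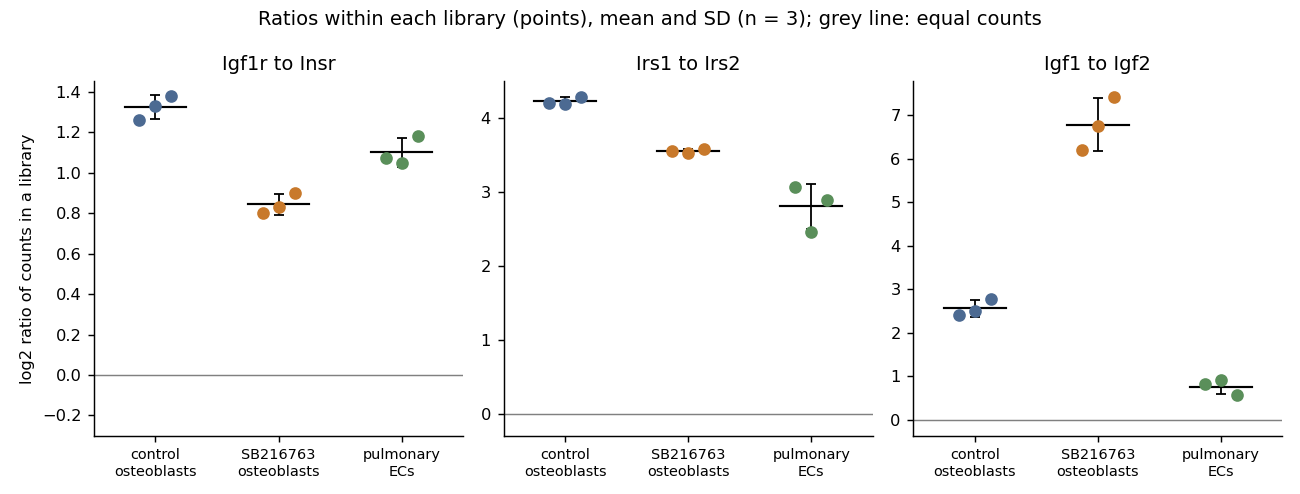
Count ratios within each library for Igf1r to Insr, Irs1 to Irs2 and Igf1 to Igf2, as log2 values, with points for libraries, lines for group means and bars for the SD of 3 libraries. The log2 ratio of Igf1 to Igf2 ran from 6.19 to 7.41 in the SB216763-treated osteoblasts, above every other library.

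The genes with the most similar pattern were sought by Pearson's r of log2 CPM over the 9 libraries, among 10254 genes with enough expression. With 3 groups of 3, such an r mostly follows the order and spacing of the group means, and the libraries share their depth and scaling, so the values are descriptive. Among the genes nearest to Irs1 were Lmod1 (r = 0.9993) and Cmtm4 (r = 0.9992). Nearest to Irs2 was Col1a1 (r = 0.9990), the main collagen chain of bone, before Zfp469 and Plxnc1. Igf2r had Fbn1 (r = 0.9989), which encodes the microfibril protein fibrillin, Nynrin and Nr2c2. Igf1 had Gas2 (r = 0.9985), Hacd2 and Pde8a, and Igf2 had Mrpl15 (r = 0.9966), Src and Cdkn3. The values for Igf1r, led by Tnrc18 (r = 0.9690), and for Insr, led by Ubr2 (r = 0.9641), were lower. An r does not reflect the size of a change. From control to treated osteoblasts, Mrpl15 went from 69.0 to 36.6 CPM and Src from 86.3 to 57.2 CPM, far smaller falls than that of Igf2. Cdkn3 went from 15.2 to 0.726 CPM.

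Of the other ligands, receptors and substrates of the family that were listed, only Insl6 reached a mean of 1 CPM in a group. Ins1 had 0 counts in every library, Ins2 had 3 counts in 1 EC library and 0 elsewhere, and Insrr, Irs3 and Irs4 had at most 7 counts in any library. Insl6, a relaxin-like peptide of the insulin superfamily, rose from 1.29 ± 0.087 to 4.37 ± 0.136 CPM with SB216763 (SD, n = 3, log2 fold change 1.76, adjusted p = 3.11e-09 in edgeR's quasi-likelihood test). Insl3 had 0.207 CPM in control and 0.395 CPM in treated osteoblasts (adjusted p = 0.0962, same test).

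Of 17 adaptors and inhibitors that act at the receptors, 16 were tested, of which 9 rose, 4 fell and 3 did not pass the test with SB216763, beside 32.9% of all genes higher and 32.0% lower. The median log2 fold change was 0.53, against 0.01 over all genes. Socs2, an inhibitor of growth hormone signaling, rose from 7.70 ± 0.219 to 89.0 ± 4.76 CPM (SD, n = 3, adjusted p = 5.32e-17 in edgeR's quasi-likelihood test), and Socs3, an inhibitor of cytokine and insulin signaling, rose 3.85-fold to 204 CPM. Grb14 and Grb10, adaptors that bind the active insulin receptor and inhibit it, fell 4.57-fold to 4.92 CPM and 3.73-fold to 187 CPM. The inhibitors thus moved in both directions. In ECs against control, 7 were higher and 6 lower, beside 39.0% and 37.9% of all genes.

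All 15 genes of the PI3K and AKT list were tested, and 9 rose, 4 fell and 2 did not pass the test with SB216763, beside 32.9% and 32.0% of all genes, with a median of 0.20. Trib3, a pseudokinase that binds AKT, fell 3.91-fold to 27.3 CPM, and Pik3cb, a catalytic subunit of PI3K, fell 2.38-fold to 5.71 CPM. The regulatory subunits Pik3r3 and Pik3r2, which dock on phosphorylated IRS proteins, rose 2.24-fold to 48.7 CPM and 1.92-fold to 256 CPM. None of the 15 passed the 4-fold cutoff, beside 3.81% of all genes higher and 5.84% lower. In ECs against control, 6 were higher and 7 lower, beside 39.0% and 37.9% of all genes, and Pik3cb was 5.37-fold higher at 73.0 CPM.

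Of 14 mTOR and FoxO genes, 12 were tested, and 7 rose, 4 fell and 1 did not pass the test with SB216763, beside 32.9% and 32.0% of all genes, with a median of 0.40. Deptor, an inhibitor that binds mTOR, fell 7.11-fold to 2.60 CPM. Foxo3, a transcription factor that AKT keeps out of the nucleus, rose 2.75-fold to 318 CPM, and Rictor and Tsc1, which encode a scaffold of an mTOR complex and a brake on mTOR, rose 1.53-fold and 1.52-fold. Slc2a4, the insulin-responsive glucose transporter, had at most 8 counts in any library and was not tested. The study reported no change of Slc2a4 with SB216763 by real-time PCR. In ECs against control 5 were higher and 5 lower, beside 39.0% and 37.9% of all genes.

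Of 12 IGF binding proteins and their proteases, 11 were tested, and 3 rose, 4 fell and 4 did not pass the test with SB216763, with a median of 0.35. Shares of 32.9% and 32.0% of all genes passed in these directions, so at this level the counts of the list were near the background. At the 4-fold cutoff 1 was higher and 3 were lower, beside 3.81% and 5.84% of all genes. Pappa2, a protease that frees IGFs from their binding proteins, fell from 1962 ± 276 to 5.10 ± 0.139 CPM (SD, n = 3, adjusted p = 1.37e-17 in edgeR's quasi-likelihood test). Igfbp2 fell from 43.0 to 0.199 CPM, a log2 fold change of -7.73 that was -9.24 without treated replicate 3. Igfbp7 fell from 87.5 to 8.13 CPM, while Igfbp5, a binding protein of bone matrix, rose from 77.1 to 398 CPM. In ECs 4 were higher and 7 lower than in control, beside 39.0% and 37.9% of all genes. At 4-fold these counts were 3 and 7, beside 13.5% and 9.87% of all genes.

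Of 10 genes of ligand processing and receptor trafficking, 9 were tested, and 4 rose, 1 fell and 4 did not pass the test with SB216763, beside 32.9% and 32.0% of all genes, with a median of 0.33. Pcsk6, a proprotein convertase, fell from 56.2 ± 2.04 to 0.397 ± 0.132 CPM (SD, n = 3, adjusted p = 1.55e-17 in edgeR's quasi-likelihood test) and was at 64.2 CPM in ECs. Cblb, a ubiquitin ligase, rose 2.22-fold to 40.7 CPM, Htra1, a secreted serine protease, 1.98-fold to 408 CPM, and M6pr, the small mannose phosphate receptor that sorts lysosomal enzymes beside Igf2r, 1.61-fold to 202 CPM. In ECs against control 6 were higher and 1 lower, beside 39.0% and 37.9% of all genes.

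**Figure D5:**
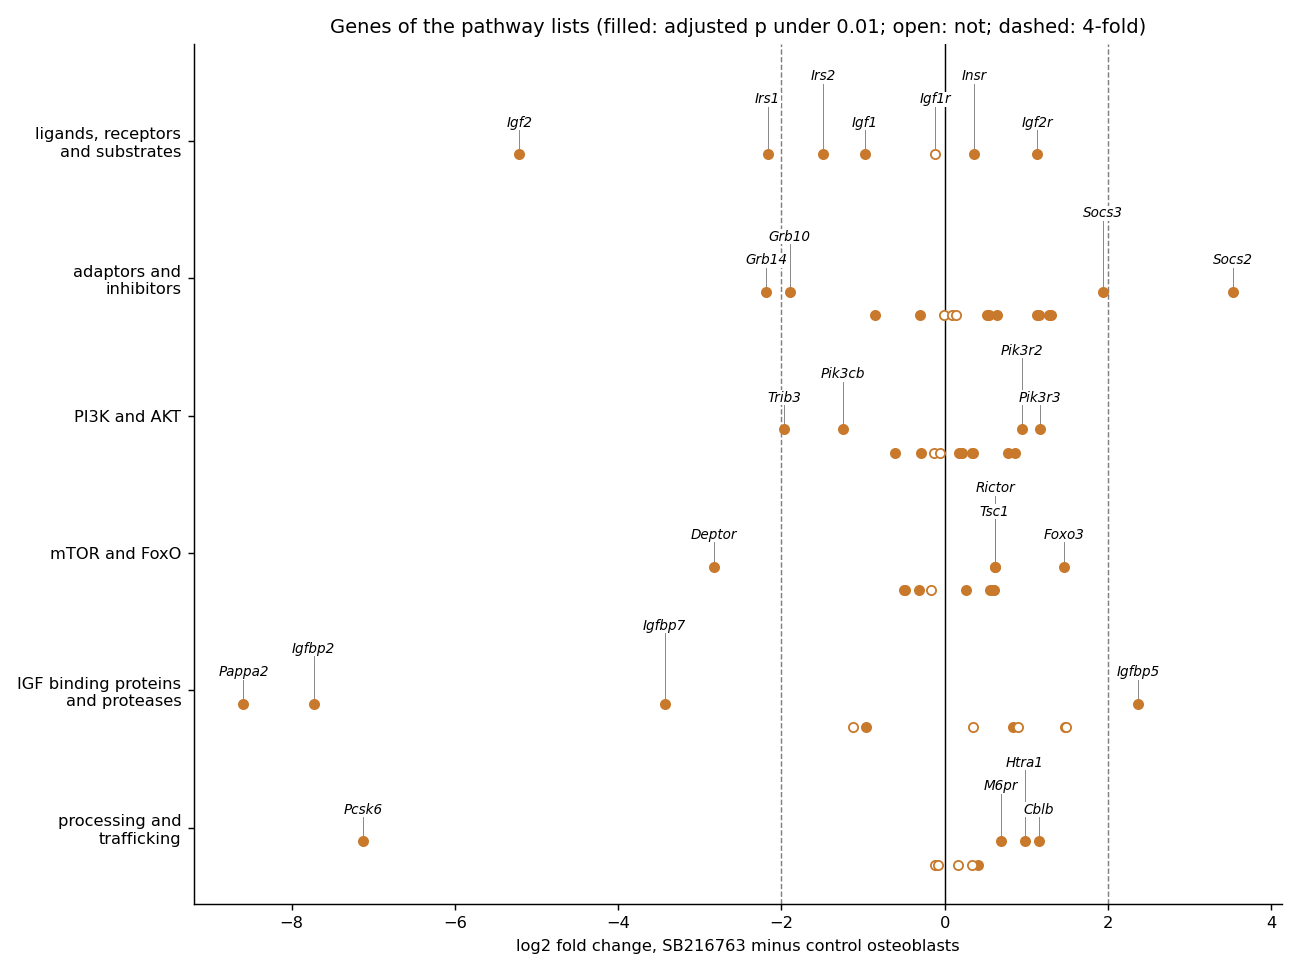
Log2 fold change of the 7 genes and the tested pathway list genes in SB216763-treated against control osteoblasts, 1 point per gene. Points are filled where the adjusted p was under 0.01, and dashed lines mark a 4-fold change. Insl6 and Insl3 of the family list are not shown. Pappa2 had the lowest value at -8.59 and Socs2 the highest at 3.53, and most genes of the PI3K and mTOR lists lay within the 4-fold lines.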

How the data were processed

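The 9 RNA-Seq libraries, 3 per group, were grouped by the sample labels. The authors aligned the reads and deposited whole-number counts per gene without normalization, made with STAR 2.5.3a on GRCm38 per the submitters' processing notes. The annotation release and strand setting are not given in the sources used here. Coordinates and exon lengths were taken by identifier from GENCODE mouse release 21, which matched 50462 of 50686 genes, and start site windows from RefSeq. A length is the union of a gene's exons, whichever isoform is expressed.

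Counts were tested in R 4.3.3 with edgeR 4.0.16 (filterByExpr, TMM, quasi-likelihood test, all 9 libraries in 1 fit, Benjamini-Hochberg adjustment over 15531 genes). A gene passed the test at an adjusted p under 0.01, and the 4-fold cutoff if its log2 fold change was also 2 or more in size. The SE of a log2 fold change was its absolute value divided by the square root of the test's F statistic. Intervals were this SE times the t quantile, so both are approximate, most of all at low counts. Ratios used a pseudocount of 0.5 and a 2-sided exact permutation test. The biological coefficient of variation was 0.0554. The members, lists and alternatives were chosen with earlier results of these data known. All 7 members are named, with the 4 genes per list that changed most with SB216763 among those past the test (1 for the family list), and the 3 genes most like each member among those with at least 10 CPM in a group. Slc2a4, Insl3, H19, Airn and low family genes are named outside this rule, after their values were seen, and 1 gene that the rule names is not reported here. Alternatives were DESeq2 1.42.0, limma-voom (limma 3.58.1), other scalings, filters, cutoffs and prior counts, fits of 2 groups, a replicate block and leaving out each library. Scripts were tested on simulated data.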

Additional observations from a re-analysis of the deposited data

How the results depend on the processing

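Igf1, Igf2, Igf2r, Irs1 and Irs2 kept their direction and their call in all 3 comparisons under every alternative run. Of the 420 fold changes of members recomputed, 406 kept direction and call, 5 changed sign, 3 passed the test newly and 6 no longer passed it. The changes all belonged to Igf1r and Insr. With scaling by library size only, which moved the median of all genes by 0.20 with SB216763 and by 0.13 in ECs against control, Igf1r was at 0.08 in treated against control osteoblasts (adjusted p = 0.386 in edgeR's quasi-likelihood test) and 1 member, Igf2, was lower at 4-fold in place of 2. With offsets by exon length, chosen after seeing the data, Insr in ECs against control was at -0.09 and Igf1r at -0.31 (adjusted p = 3.91e-04, same test). With only the 2 groups compared, 1 member, Igf2r, was higher with SB216763 in place of 2. Leaving out each library in turn gave -0.07 to 0.18 for Insr in ECs against control and -0.02 to 0.07 for Igf1r in treated osteoblasts against ECs, and control replicate 2 decided the calls of Igf1r named above. A log2 fold change of at least 1 gave 1 member higher with SB216763, Igf2r, in place of 0, 3 lower in place of 2, and 4 higher in treated osteoblasts against ECs in place of 3. It also raised the counts over all genes from 592 to 1726 higher and from 907 to 2015 lower with SB216763, from 2102 to 3295 and from 1533 to 2716 in ECs against control, and from 1604 to 2978 and from 2329 to 3608 in treated osteoblasts against ECs.

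Replicate numbers are shared between groups, but nothing says that they mark a pair, and the deviations of same-numbered libraries had correlations of -0.0392 to 0.123 over genes, not all over 0.1. Between treated and control osteoblasts these were 0.00286, 0.123 and 0.081, and 4 of 6 libraries correlated best with their own number. The numbers were not taken as pairs. With the replicate block, Insr in treated against control osteoblasts was at 0.36 (adjusted p = 8.5e-04 in edgeR's quasi-likelihood test), and 0 of 21 calls changed. For the ratios, the exact sign-flip permutation test over pairs could not go below p = 0.25. Depth limits Igf2 in treated osteoblasts and Irs2 in ECs most. Groups of 3 were too small for a check of single outlying values.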
